A study of Mus musculus with 5 samples.

Results

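The genes described here were Nedd4l, which encodes a ubiquitin ligase, and 9 genes of ion and water transport in the colon, Scnn1a, Scnn1b, Scnn1g, Sgk1, Slc26a3, Slc9a3, Cftr, Aqp8 and Atp12a. They were 10 of 32917 features tested on Agilent arrays of whole colon. All probes that the scanner files name for these genes were taken, 14 in total, and each was well above background on all 5 arrays. They were selected on the measured signal of Nedd4l in NT-3N against Control, with its partners in ion transport added by name, and the results of that comparison were known. The differences between the groups are therefore given as a description, with no p-value for these 10 genes, and nothing is read from calls on them.

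The 2 Control arrays held colon RNA of wild-type mice, which the study calls untreated. The 3 NT-3N arrays held colon RNA of wild-type mice taken 3 hr after intravenous injection of NT-3N, a modified human IL-11 that acts as agonist on the IL-11 receptor. All mice were of the strain labelled C57BL/B6, and the injected mice were 8 weeks old. The injected amount is 10 mg in the series description and 10 μg in the methods, and no vehicle injection is named for Control, so injection and agonist cannot be told apart. Each array held 1 colon. The limma p-values and standard errors below set a difference against the spread between these 5 mice. limma draws that spread, for each gene, toward the spread of features of like intensity. A standard error can therefore be smaller than a noisy gene's own 5 values would give, and larger for an even gene.

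Colonic epithelial cells take up sodium and chloride and draw water after them, and they can also secrete chloride. In the distal colon sodium enters through ENaC, a channel built of an alpha, a beta and a gamma subunit (Scnn1a, Scnn1b and Scnn1g), and this step is under the control of aldosterone. The ligase Nedd4l binds the tails of the ENaC subunits and marks the channel for removal from the cell surface, and the kinase Sgk1 phosphorylates Nedd4l and so keeps it from the channel. Electroneutral uptake runs through the sodium-proton exchanger Slc9a3 and the chloride-bicarbonate exchanger Slc26a3. Cftr is the chloride channel of secretion, Atp12a a proton-potassium pump of the surface epithelium in the distal colon, and Aqp8 a water channel of surface colonocytes.

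The 5 arrays shared 1 slide and 1 scan time, no spot was saturated, and between 70.6% and 72.9% of probes were well above background. Socs3, a feedback inhibitor that cytokines of the IL-11 family induce, rose by 2.71 on the log2 scale (limma adjusted p = 0.0087), and 47 features in all passed an adjusted p of 0.05. Epithelial markers, of which 11 of 12 were tested, had a mean log2 signal between 15.38 and 15.44 on the Control arrays and between 15.27 and 15.39 on the NT-3N arrays. All 9 smooth muscle markers were lower by mean, 4 at an unadjusted p under 0.05 in limma. That threshold was passed by 9.62% of all features, in either direction. The mean log2 signal of the 9 went from between 14.31 and 14.35 to between 13.68 and 14.06. Leukocyte markers, 7 of 9 higher by mean and 3 at an unadjusted p under 0.05, had a mean log2 signal between 7.75 and 8.22 in Control and between 9.22 and 9.81 in NT-3N, and S100a8 and S100a9 were well above background on the NT-3N arrays only. All 7 surface colonocyte markers and 7 of 8 enteric neuron and glia markers were lower by mean, and the 6 HOX genes of the distal hindgut were split at 3 each. None of these lists had a gene at an unadjusted p under 0.05 in limma, and Cdx1 was the epithelial marker not tested. The part of these cell types in the values below was not tested. In whole tissue, fewer cells of a type and less RNA per cell cannot be told apart.

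Nedd4l was higher on every NT-3N array than on either Control array, by both of its probes. On its brighter probe the log2 signal was 13.55 and 13.58 in Control and 14.34, 14.33 and 14.25 in NT-3N. The group means were 13.56 ± 0.022 (SD, n = 2) and 14.31 ± 0.051 (SD, n = 3). The difference of 0.74 on the log2 scale, a 1.67-fold higher signal, had a standard error of 0.071. On the dimmer probe the log2 signal was 8.13 and 8.50 in Control and 9.11, 9.25 and 9.24 in NT-3N, a difference of 0.88 (standard error 0.14), and there was no overlap here either. Both probes carry the same transcript accession, so they are repeat measurements of 1 transcript and not independent genes.

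On its brighter probe, the difference in Nedd4l was small beside other features called higher, and even across mice. Of the 41 features called higher, Nedd4l ranked 40 by the size of its log2 fold change. Only 4.37% of the 29816 features well above background on all arrays had a smaller spread within groups. A call at so small a difference needs a small spread, so this percentage is no separate result. The dimmer probe had an SD within groups of 0.16, beside 0.043 for the brighter probe. The signal of Nedd4l relative to the mean of the epithelial markers on the same array went from -1.84 ± 0.065 (SD, n = 2) to -1.01 ± 0.040 (SD, n = 3) on the log2 scale. Since the mean of the epithelial markers differed little between groups, this restates the values above. Of the 10 genes, 1 was among the features called at an adjusted p under 0.05 and it was Nedd4l, where limma called 0.143% of all features and called 0.125% higher in NT-3N. The groups did not overlap for 3 of the 10 genes, beside 28.4% of all features. The call on Nedd4l was lost without Control replicate 1, Control replicate 2, NT-3N replicate 2 or NT-3N replicate 3, while the difference stayed between 0.73 and 0.77. Since the genes were chosen with this comparison known, nothing is read from these counts or from the call on Nedd4l, which its selection favoured.

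**Figure D1:**
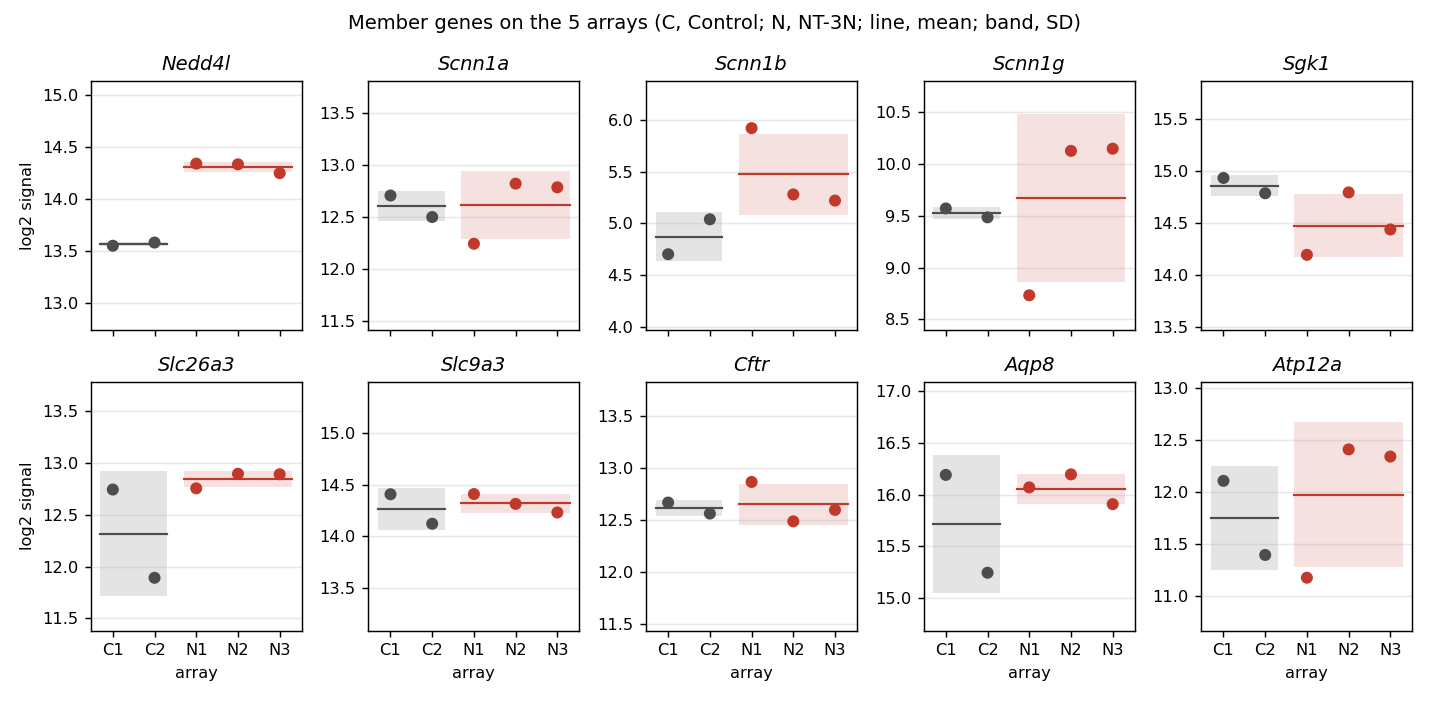
Log2 signal of the brightest probe of each of the 10 genes on the 2 Control arrays (C1, C2, grey) and the 3 NT-3N arrays (N1 to N3, red), with the group mean as a line and the SD as a band; every panel spans the same number of log2 units. Nedd4l has the narrowest groups, from 13.55 to 13.58 and from 14.25 to 14.34, while Scnn1g and Atp12a spread most within NT-3N.

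The genes whose pattern over the 5 arrays lay nearest to that of Nedd4l were Stat3, Cd38, Taf4b, Wfdc17 and Tha1. Nearness was the root mean square difference between log2 signals that were each centred on their own mean, over 16734 named features well above background on all 5 arrays. Genes this near to Nedd4l must part the groups by a similar amount, so their separation follows from the choice. Stat3, the transcription factor that IL-11 signalling activates, was closest at 0.025. Its log2 signal was 12.84 and 12.80 in Control and 13.61, 13.58 and 13.48 in NT-3N, which leaves the groups apart by 0.74. Cd38, an enzyme that consumes NAD, followed at 0.032 with log2 signals of 11.60 and 11.67 in Control and 12.42, 12.41 and 12.25 in NT-3N. The root mean square difference was 0.051 for Taf4b, a subunit of the general transcription factor TFIID, 0.070 for Wfdc17 and 0.070 for Tha1, a threonine aldolase.

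**Figure D2:**
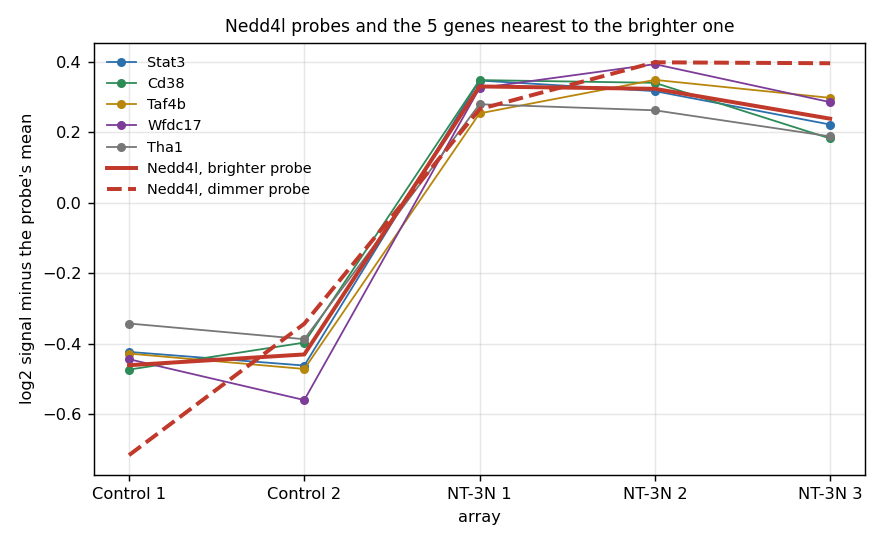
Log2 signal minus each probe's own mean over the 5 arrays, for the brighter (solid red) and dimmer (dashed red) probe of Nedd4l and for the 5 nearest genes, with a thin line for each gene. The 7 lines lie below their mean on both Control arrays and above it on all 3 NT-3N arrays. For the 5 genes this follows from how they were chosen. The line of Stat3 runs closest to the brighter Nedd4l probe.

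The ENaC subunits are the best known targets of Nedd4l. On their brightest probes Scnn1a and Scnn1g had a similar pattern over the arrays, and Scnn1b did not share it. Scnn1a, the alpha subunit, had a log2 signal of 12.71 and 12.50 in Control and 12.24, 12.82 and 12.79 in NT-3N. The groups overlapped, with NT-3N replicate 1 lowest and the other NT-3N arrays highest, and the difference was 0.013 (log2, standard error 0.19). The dimmer probe of Scnn1a had a difference of -0.15 (log2, standard error 0.12) and also overlapped. Scnn1g, the gamma subunit, had a log2 signal of 9.57 and 9.48 in Control and 8.73, 10.12 and 10.15 in NT-3N. NT-3N replicate 1 again lay below both Control arrays and replicates 2 and 3 above them, so that the log2 fold change of 0.14 had a standard error of 0.43. Without NT-3N replicate 1 the log2 fold change of Scnn1g was 0.61, and it turned to -0.087 without NT-3N replicate 2 and to -0.098 without NT-3N replicate 3. That of Scnn1a ranged from -0.090 without Control replicate 2 to 0.20 without NT-3N replicate 1.

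Scnn1b, the beta subunit, was the dimmest of the 14 probes in raw brightness, which says nothing on its level against the other subunits. Its log2 signal was 4.70 and 5.04 in Control and 5.92, 5.28 and 5.22 in NT-3N. The groups did not overlap, and the highest value belonged to the replicate that was lowest for Scnn1g and the brighter probe of Scnn1a. The difference was 0.60 (log2, standard error 0.29). It was 0.38 without NT-3N replicate 1 and 0.21 with normexp background correction, whose offset compresses dim signals.

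Sgk1, the kinase that holds Nedd4l off the channel, was the only one of the 10 with a lower mean in NT-3N by its brightest probe. Its log2 signal was 14.93 and 14.79 in Control and 14.19, 14.80 and 14.44 in NT-3N. NT-3N replicates 1 and 3 lay below both Control arrays and replicate 2 between them. The difference was -0.38 (log2, standard error 0.17), and it was -0.24 without NT-3N replicate 1.

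Sgk1 is known as a target of glucocorticoid and mineralocorticoid receptors, and it has 6 start sites in the RefSeq promoter table used here (build GRCm38.p6). The 250 bases before each of 12 start sites of Scnn1b, Scnn1g, Sgk1, Slc26a3, Slc9a3, Cftr and Aqp8 were searched on both strands for the glucocorticoid response element, for TTCNNNGAA, the element of STAT factors, and for TTTATNG, an element of CDX and posterior HOX factors. The glucocorticoid element was found at 1 start, start 5 of Sgk1, and the STAT element at 1 start, start 1 of Sgk1. Of all 32851 promoters listed, 0.387% held the glucocorticoid element, 7.02% the STAT element and 9.81% the CDX and HOX element, which none of the 12 held. Nedd4l, Scnn1a and Atp12a were not searched. These matches are letters and not shown to be sites. Both stretches are printed 5′ to 3′ on the plus strand with the match in capitals, since they are the 2 matches among the 7 genes searched.
Sgk1, start 5, 188 bases before it, chr10:21993642-21993774: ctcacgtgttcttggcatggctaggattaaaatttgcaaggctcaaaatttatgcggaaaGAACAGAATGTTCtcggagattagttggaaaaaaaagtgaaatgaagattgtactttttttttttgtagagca
Sgk1, start 1, 223 bases before it, chr10:21881934-21882029: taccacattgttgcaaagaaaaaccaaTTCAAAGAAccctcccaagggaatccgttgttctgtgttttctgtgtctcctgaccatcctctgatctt

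Of the exchangers of electroneutral uptake, Slc26a3 had a log2 signal of 12.74 and 11.89 in Control and 12.75, 12.89 and 12.89 in NT-3N. The groups did not overlap, but Control replicate 1 lay just below the lowest NT-3N array and Control replicate 2 stood apart from the other 4. The log2 fold change of 0.53, with a standard error of 0.23, rested on that mouse. Leaving out Control replicate 2 gave 0.10 and leaving out Control replicate 1 gave 0.95. Slc9a3 had a log2 signal of 14.41 and 14.12 in Control and 14.41, 14.31 and 14.23 in NT-3N. All 3 NT-3N values lay above Control replicate 2, only 1 of them lay above Control replicate 1, and the difference was 0.053 (log2, standard error 0.11). It ranged from -0.089 to 0.20 when either Control array was left out. The dimmer probe of Slc9a3 had a difference of 0.35 (log2, standard error 0.20) and overlapped too.

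Aqp8 showed the same low Control replicate 2 as Slc26a3. Its log2 signal was 16.19 and 15.25 in Control and 16.07, 16.19 and 15.91 in NT-3N. The groups overlapped. The log2 fold change of 0.34, with a standard error of 0.26, turned to -0.13 on leaving out Control replicate 2 and was 0.81 when Control replicate 1 was left out. Atp12a had a log2 signal of 12.11 and 11.39 in Control and 11.18, 12.41 and 12.34 in NT-3N. NT-3N replicate 1 was lowest and replicates 2 and 3 highest, as for Scnn1a and Scnn1g, and the difference was 0.22 (log2, standard error 0.41). It was 0.63 without NT-3N replicate 1, 0.58 without Control replicate 1, 0.042 without NT-3N replicate 3, 0.0075 without NT-3N replicate 2 and -0.13 without Control replicate 2.

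Cftr, the channel of chloride secretion, had the smallest spread within groups after Nedd4l and Slc9a3 (brighter probes). Its log2 signal was 12.67 and 12.56 in Control and 12.87, 12.49 and 12.60 in NT-3N, with the Control values inside the NT-3N range. The difference was 0.035 (log2, standard error 0.13) on the brighter probe and 0.17 with a standard error of 0.17 on the dimmer one. On the brighter probe it ranged from -0.073 without NT-3N replicate 1 to 0.12 without NT-3N replicate 2. Over the 10 genes the median log2 fold change was 0.18, beside -0.019 over all features.

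The arrays stood in the same order for Scnn1a, Atp12a and the distal hindgut gene Hoxb13, from NT-3N replicate 1 through Control replicates 2 and 1 to NT-3N replicates 3 and 2. HOX genes of the last paralogue groups mark the posterior end of the gut. Hoxb13 had a log2 signal of 15.13 and 14.70 in Control and 14.55, 15.37 and 15.35 in NT-3N. Hoxd13 had 10.44 and 10.10 in Control and 9.85, 10.92 and 10.97 in NT-3N, in the same order as Scnn1g. NT-3N replicate 1 was lowest for all 6 HOX genes of the list, whose mean log2 signal was 9.31 and 9.25 in Control and 8.81, 9.67 and 9.48 in NT-3N. Beyond that array, Hoxd10, Hoxd11, Hoxd12 and Hoxa13 stood in other orders than Hoxb13 and Hoxd13, with Control replicate 1 highest for Hoxa13. How many features share such an order was not counted. The dimmer probe of Scnn1a did not follow this order, with log2 signals of 10.41 and 10.18 in Control and 10.26, 10.08 and 10.08 in NT-3N.

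Aqp4 and Fxyd4, a water channel and a regulator of the sodium pump from the wider lists, were also lowest in NT-3N replicate 1 and highest in replicates 2 and 3. The surface colonocyte markers were mixed. For 4 of the 7, Car1, Emp1, Cyp2c55 and Krt20, NT-3N replicate 1 was highest and replicate 3 lowest, for Car4 and Ceacam20 NT-3N replicate 1 was lowest, and Mep1a had neither pattern. Car1, a carbonic anhydrase, had a log2 signal of 17.43 and 17.33 in Control and 17.77, 16.87 and 16.50 in NT-3N. Nedd4l, with NT-3N values within 0.091 of each other on its brighter probe, showed no such split of the treated mice there. On its dimmer probe NT-3N replicate 1 was lowest, at 9.11 beside 9.25 and 9.24, a range of 0.13. Aqp4, Fxyd4 and Car1 were chosen after their values were seen, and the part of the HOX values in the spread of Scnn1a, Scnn1g and Atp12a was not tested.

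**Figure D3:**
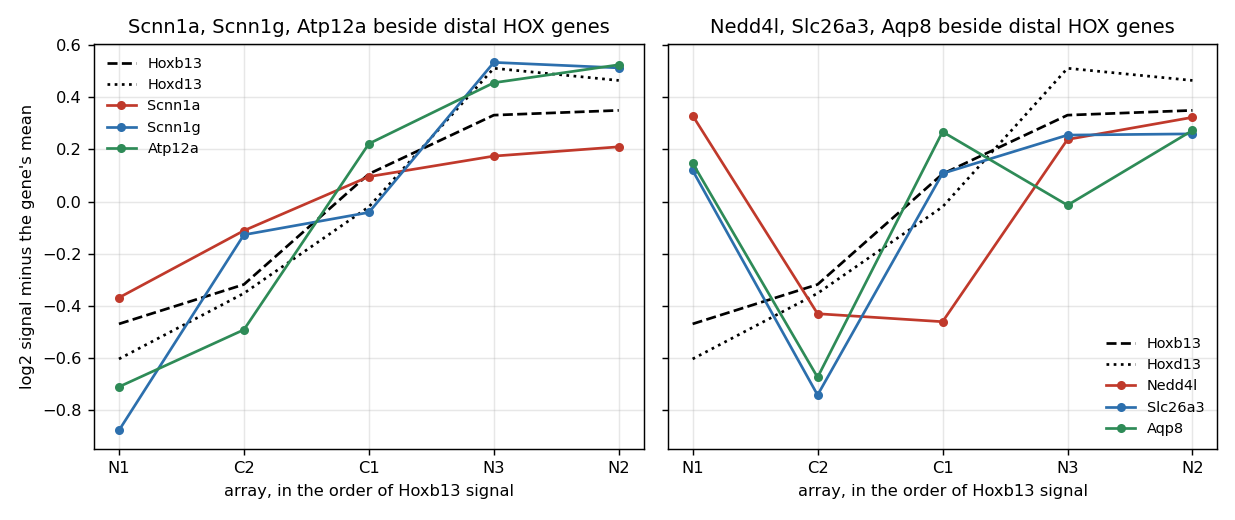
Log2 signal minus each gene's mean, with the 5 arrays (C, Control; N, NT-3N) placed in the order of their Hoxb13 signal, for Scnn1a, Scnn1g and Atp12a (left) and Nedd4l, Slc26a3 and Aqp8 (right), beside Hoxb13 (dashed) and Hoxd13 (dotted). The genes on the left climb with Hoxb13 from N1 to N2 apart from a small step down of Scnn1g at the end, whereas Nedd4l separates C from N and Slc26a3 and Aqp8 dip in C2.

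Other genes of the same processes were read from lists of 114 genes, of which 112 were tested. At an adjusted p under 0.05 limma called 0 of them, and at an unadjusted p under 0.05 it had 5 higher and 8 lower, which is 11.6% of those tested beside 9.62% of all features. The local-pooled-error test, written here from its general description, called 1 higher and 2 lower, which were Txnip, Car1 and Zbtb16. In simulated data 52.06% of the calls of that test were false, and limma recovered only 30% of 2-fold changes. The median log2 fold change of the 112 genes was -0.058. The share of these genes with a difference was therefore near that of the array as a whole. The same 9.62% stands beside the count of each single list below. Of the genes named below, 13 passed only the unadjusted threshold, had groups that did not overlap and were well above background on all arrays. These were Arrdc3, Cnksr3, Tsc22d3, Mllt3, Slc9a3r2, Slc5a8, Kcnma1, Kcnk5, Fxyd1, Cldn1, Tjp1, Cldn4 and Cldn15, and the other listed genes named below are given for their role.

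Among the 14 ligases of the Nedd4 family and their adaptors, 7 were higher by mean and 7 lower. The 7 higher include Txnip by its brighter probe, which rests on 1 array as given below. The sister ligase Nedd4 had a log2 fold change of -0.10 and Wwp2, another ligase of the family, 0.22, with limma adjusted p of 0.71 and 0.61. Arrdc3, an arrestin-like adaptor that recruits these ligases, had a log2 signal of 9.46 and 9.21 in Control and 9.78, 9.76 and 9.71 in NT-3N, a log2 fold change of 0.42 with an adjusted p of 0.35 in limma. For the adaptor Txnip the probes disagreed. Its brighter probe read 1.31 on Control replicate 1 and between 15.26 and 15.67 on the other arrays, while its dimmer probe read 11.20 there and between 10.78 and 11.42 elsewhere, so no fold is given.

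Of 24 regulators of ENaC, 23 were tested, with 6 higher by mean and 17 lower. Cnksr3, a scaffold that aldosterone induces and that brings Sgk1 to its targets, had a log2 signal of 10.24 and 10.30 in Control and 10.93, 10.68 and 10.67 in NT-3N, with a difference of 0.48 on the log2 scale (limma adjusted p = 0.27). Tsc22d3, a steroid-induced protein that keeps ENaC at the surface, had 13.70 and 13.50 in Control and 13.20, 13.26 and 12.95 in NT-3N. Its difference was -0.46 on the log2 scale (limma adjusted p = 0.32), and its other probe gave -0.37. Mllt3, a chromatin reader that acts with Dot1l at the Scnn1a promoter, had a difference of -0.25 on the log2 scale (limma adjusted p = 0.48), and its other probe gave -0.078. The mineralocorticoid receptor Nr3c2 had a log2 fold change of 0.26 and the glucocorticoid receptor Nr3c1 -0.077, with overlap for Nr3c1 only.

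Sgk1 was set beside 8 other genes that glucocorticoids or mineralocorticoids induce. Of these, 4 were higher by mean and 4 lower, and Tsc22d3 alone passed the unadjusted threshold. Log2 fold changes were -0.58 for Zbtb16, -0.31 for Fkbp5, 0.22 for Per1 and 0.23 for Klf9, with limma adjusted p of 0.64, 0.69, 0.72 and 0.56. Their signs were thus evenly split.

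Among 18 genes of electroneutral uptake and bicarbonate transport, 1 was higher and 1 lower at the unadjusted threshold. Slc9a3r2, a scaffold protein that binds Slc9a3, had a log2 signal of 10.64 and 10.60 in Control and 9.64, 10.10 and 10.15 in NT-3N. Its difference was -0.66 on the log2 scale (limma adjusted p = 0.32), and its other probe gave -0.52. Slc5a8, which carries sodium with short-chain fatty acids, had a difference of 0.31 on the log2 scale (limma adjusted p = 0.49), which was 0.19 without Control replicate 2. For chloride and fluid secretion 14 of 15 genes were tested and 0 passed either threshold. The cotransporter Slc12a2, which loads the cells with chloride, had a log2 fold change of 0.18 and the chloride channel Ano1 0.29, with limma adjusted p of 0.60 and 0.72.

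For potassium transport and the sodium pump 3 of 16 genes were lower at the unadjusted threshold and 0 higher. These were Kcnma1, a calcium-activated potassium channel, with a log2 fold change of -0.32, Kcnk5, a background potassium channel, with -0.30, and Fxyd1, a regulator of the pump known from muscle, with -0.25, and their limma adjusted p lay between 0.40 and 0.51. All 5 probes of Kcnma1 were lower by mean, from -0.17 to -0.36, but the groups overlapped on 3 of them. Without Control replicate 1 the difference of Kcnk5 was -0.16. Kcnma1 and Fxyd1 are also expressed in smooth muscle, and the 9 smooth muscle markers had a median log2 fold change of -0.35 on the same arrays, from -0.22 for Myh11 to -0.88 for Smtn. The part of muscle tissue in the values of Kcnma1 and Fxyd1 was not tested.

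Among 14 tight junction genes 2 were higher and 2 lower at the unadjusted threshold. Cldn1, a sealing claudin, had no overlap between groups, and its mean log2 signal went from 6.60 ± 0.22 (Control, SD, n = 2) to 7.41 ± 0.36 (NT-3N, SD, n = 3). The difference was 0.81 (limma adjusted p = 0.37). Tjp1, which links junctions to actin, had a log2 fold change of 0.31, Cldn4 -0.46 and Cldn15, a claudin that lets sodium pass, -0.37, with limma adjusted p between 0.36 and 0.50. The other probe of Tjp1 gave 0.16 and its groups overlapped. Without Control replicate 2 the difference was 0.14 for Tjp1 and -0.19 for Cldn15, and without Control replicate 1 it was 0.49 for Tjp1. Of the 7 aquaporins other than Aqp8, 0 passed either threshold in limma, 2 were higher by mean and 5 lower.

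**Figure D4:**
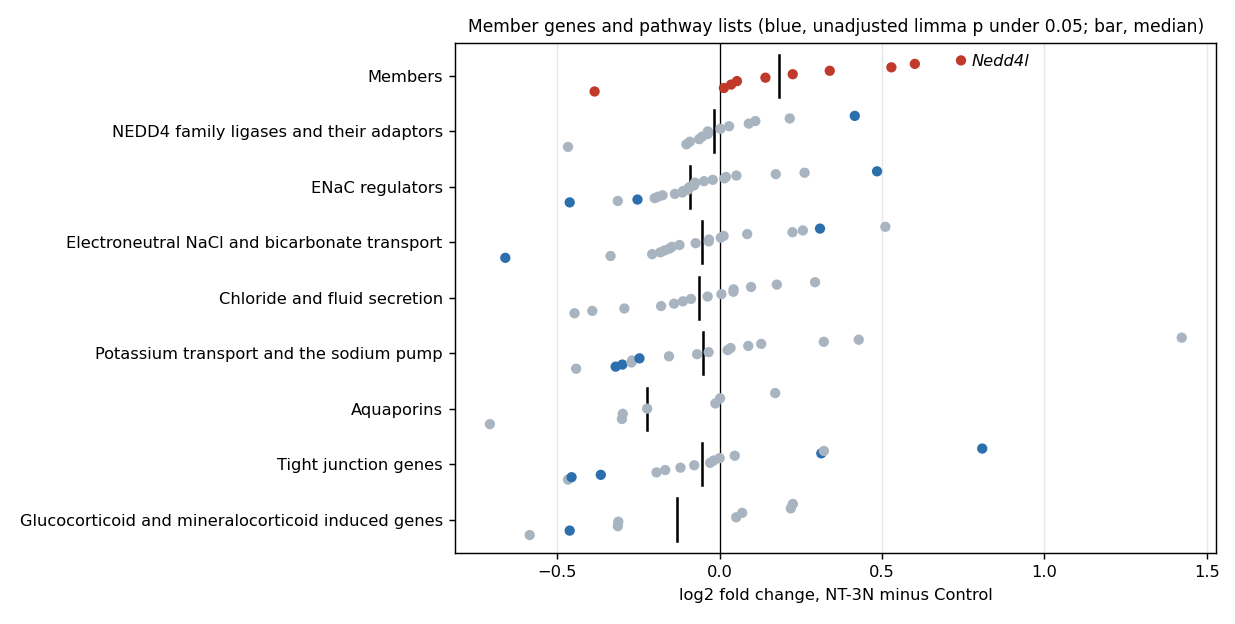
Log2 fold change (NT-3N minus Control) of the 10 genes described here (red, top row, "Members") and of every tested gene of the 8 wider lists, with blue for an unadjusted limma p under 0.05 and a black bar for the list's median; Txnip, whose probes disagree, is left out of the points but counted in the median. Nedd4l lies furthest to the right in its row, and the medians of the 8 lists lie between -0.22 and -0.017.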

How the data were processed

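Cy3-labelled RNA of whole colon was hybridised to Agilent SurePrint G3 mouse arrays, 2 of Control and 3 of NT-3N. The authors extracted spots with Feature Extraction 11.0.1.1, and the deposited scanner files hold intensity that is background-subtracted and detrended within an array but not scaled between arrays. The authors also deposited a log2 table of 37380 probes, which matched quantile-normalized processed signal (lowest Pearson r across probes 0.999983, median 8.47 in every column) and served as an alternative. Its lack of centring follows from that median. Pearson r does not show the log base, which was read from fold changes of like size, 0.739 for Nedd4l beside 0.743 here.

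Control spots and outlier spots (between 69 and 184 of 59305 other spots per array) were dropped, spots of a probe averaged, and log2 processed signal quantile-normalized. Accessions named 32989 of 56605 probes through a RefSeq table of GRCm38.p6; the array design names another build, so no gene coordinates are given. Features needed signal well above background on 2 or more arrays, and the brightest probe stood for a gene. Standard errors are the moderated ones of limma, and those of dimmer probes come from a fit with every probe as a feature. NT-3N was set against Control by limma 3.58.1 under R 4.3.3 (lmFit, eBayes with intensity trend, two-sided, Benjamini-Hochberg over 32917 features). limma replaced the local-pooled-error test of the study's methods as both pool the spread over features; that test was written from its description and run as an alternative. The fit was tested on simulated data with known changes. Precision is limited by having 5 arrays.

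The members and lists were chosen with earlier results of these data known. Named were all members, any listed gene at an adjusted p under 0.05, up to 3 higher and 3 lower genes of a list at an unadjusted p under 0.05 with no overlap and signal on all arrays, the 5 genes nearest to Nedd4l, and Socs3; other listed genes were named for their role after their values were seen. Alternatives were other scalings, background correction, filters, probe rules, array weights, no trend, a replicate block and leaving out each array.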

Additional observations from a re-analysis of the deposited data

How the results depend on the processing

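The log2 fold change of Nedd4l, 0.74, kept its direction under all 16 alternatives, with 0.81 for the mean of its probes; the dimmer probe taken alone, added after seeing the data, gave 0.88; it lay between 0.73 and 0.77 without each array in turn. Nedd4l was among the features called in 6 of the 11 alternatives on all 5 arrays. Nothing is read from this, since Nedd4l was selected on the same comparison. Scnn1a changed sign in 5 of 16, Cftr in 4, Scnn1g in 3 and Slc9a3, Aqp8 and Atp12a in 1 each. The number of arrays limits all of these values.

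Of the listed genes 0 higher and 0 lower passed an adjusted p of 0.05 in limma. The local-pooled-error test gave 1 higher and 2 lower, and without each array in turn there were 0 to 1 higher, the 1 being Txnip without Control replicate 2, and 0 lower. At an unadjusted p under 0.05 the 5 higher and 8 lower became 8 and 15 with array weights, 3 and 5 without the intensity trend, and 3 and 4 with normexp; median scaling gave 3 lower. Without each array in turn they ranged from 3 to 11 higher and from 4 to 19 lower, the most without NT-3N replicate 1 and the fewest lower without NT-3N replicate 3; there were 3 higher without Control replicate 2 or NT-3N replicate 2.

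Over all features the 41 higher and 6 lower calls became 128 and 48 with array weights, 188 and 154 with the local-pooled-error test, and 2 and 0 without a filter on dim probes or without the trend. The lower calls numbered 11 with the deposited values, 13 with probes above background on all arrays and 16 with every probe as a feature, an alternative chosen after seeing the data. Without each array in turn the calls ranged from 0 to 114 higher and from 0 to 16 lower: leaving out Control replicate 1 gave 31 and 0, Control replicate 2 gave 114 and 4, NT-3N replicate 1 gave 71 and 16, and NT-3N replicate 2 gave 9 and 1. Without NT-3N replicate 3 limma called 0 in all, with 2384 features at an unadjusted p under 0.05. The cause was not tested.

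Replicate numbers were not taken as a pairing, since labels tie no number to a shared litter or day; deviations of same-numbered arrays correlated at 0.13 and 0.036 over 2 pairs. With the replicate block, in which NT-3N replicate 3 has no partner and adds nothing, limma called 0 features higher and 0 lower, with 2488 at an unadjusted p under 0.05, and Nedd4l had a log2 fold change of 0.77. The 13 listed genes named by rule kept their sign in all 16 alternatives, though leaving out 1 Control array moved Tjp1, Kcnk5, Cldn15 and Slc5a8 by over 1.5 times, and 0 of them passed an adjusted p of 0.05 in any.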
